A study of Rattus norvegicus with 9 samples.

Results

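The genes Kdr, Tek, Sox17, Emcn, Cldn5, Gng11 and Rbp7, known from endothelium, are described here across the arrays of rat thoracic aorta. They are 7 of 9653 named genes on the array and were read by 8 probes, 1 for each gene except Sox17, which had 2. They were chosen by name with their log ratios between the groups already known, so those ratios are given as a description without a test. Aortas of rats born to diabetic mothers (diabetic mother offspring, DMO) were compared with those of rats from control mothers (control mother offspring, CMO) on two-colour arrays, which hybridise the RNA of a rat from each group to the same probes in a red (Cy5) and a green (Cy3) dye. The 9 arrays held 5 pairs of rats, named here by the number of the DMO rat. Pairs 193, 197, 199 and 220 were measured in both dye orientations, and pair 194 with the DMO rat on Cy3 alone. The strain, sex, age and litter of the rats and the way the mothers became diabetic are not among the labels used here, and p-values measure the spread between these pairs only.

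The endothelium is the single layer of cells that lines every vessel, and in the aorta it is a small part of a wall made mostly of smooth muscle. Kdr (VEGF receptor 2) and Tek (the angiopoietin receptor TIE2) are its main tyrosine kinase receptors for growth and for quiescence. Sox17 is a SOXF transcription factor with a known role in arterial endothelial identity, and ETS factors such as Erg and Fli1 act beside SOXF factors at endothelial genes.

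Each value is a log ratio as deposited, with an unstated base taken as log2. Whether a positive value stands for more RNA in DMO or in CMO rats could not be settled from the labels or files, so values are called positive or negative and no group is called higher. The values of arrays with swapped dyes were taken as already turned to run the same way. Features were tied to genes through a position numbering that was chosen after seeing the data. With it, 57 of 58 combinations of same-gene probes with both values over 1 in size had the same sign (98.3%), against 10 of 14 (71.4%) with row numbers as deposited. Log ratios carry no level, so the presence of endothelial RNA, or of any marker at 0, could not be checked from them. Gng11 and Rbp7 were not on the general endothelial list used here.

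Kdr, the main signalling receptor for VEGF-A, was positive on all 9 arrays. With DMO on Cy3 and then on Cy5, pair 193 gave log ratios of 0.51 and 0.86, pair 197 gave 0.88 and 0.92, pair 199 gave 0.018 and 0.12, and pair 220 gave 0.097 and 0.067, while the array of pair 194 gave 0.24. Pairs 193 and 197 stood well above the other pairs, and pairs 199 and 220 lay close to 0. The mean over pairs was 0.40 ± 0.38 (SD, n = 5). Kdr lay above 99.3% and 98.9% of the 19478 features in pairs 193 and 197, but above 66.8% and 65.4% in pairs 199 and 220.

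Tek had smaller ratios in the same pairs. In the same array order, pair 193 gave 0.11 and 0.27, pair 197 gave 0.52 and 0.34, pair 199 gave 0.13 and -0.29, and pair 220 gave -0.12 and 0.14, while the array of pair 194 gave 0.22. Both arrays were positive in pairs 193 and 197, while the arrays of pairs 199 and 220 differed in sign. The mean was 0.15 ± 0.20 (SD, n = 5), with 4 of 5 pairs positive. Since aortic tissue was measured whole, a difference in the number of endothelial cells and a difference in RNA per cell cannot be told apart for any of these genes.

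Sox17 had the narrowest spread over pairs among the 7 genes when its probes were averaged, with 0.18 for pair 199 and between 0.40 and 0.42 for the other 4, a mean of 0.36 ± 0.10 (SD, n = 5). The probes differed from each other. The first probe was positive on all 9 arrays, where pair 193 gave 0.83 and 0.62, pair 194 gave 0.99, pair 197 gave 0.85 and 0.52, pair 199 gave 0.43 and 0.39, and pair 220 gave 0.49 and 0.0035. For the second probe, pair 193 gave 0.18 and 0.0066, pair 194 gave -0.18, pair 197 gave 0.29 and 0.010, pair 199 gave 0.25 and -0.35, and pair 220 gave -0.16 and 1.26. Its mean was 0.11 ± 0.28, against 0.61 ± 0.29 for the first probe (SD, n = 5 each). The 2 probes were furthest apart on the Cy5 array of pair 220, where the first probe had its lowest value and the second its highest, so the narrow spread of the average was not a property of either probe.

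Emcn and Cldn5 encode surface proteins of endothelial cells: endomucin, a mucin-like glycoprotein, and claudin-5, a tight junction protein. For Emcn, pair 193 gave 1.01 and 0.53, pair 194 gave 0.63, pair 197 gave 1.06 and 0.91, pair 199 gave -0.36 and -0.47, and pair 220 gave 0.22 and 0.039. It was strongly positive in pairs 193, 194 and 197 and negative on both arrays of pair 199, where it lay above only 6.41% of the features. The mean was 0.42 ± 0.56 (SD, n = 5).

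Cldn5 followed another order. Its log ratios were -0.14 and -0.27 for pair 193 and 0.88 for pair 194, and pair 197 gave 0.77 and 0.17, pair 199 gave 0.87 and 0.25, and pair 220 gave 0.20 and -0.47. Pair 193, where Kdr and Emcn were high, was negative for Cldn5, and pair 199, where Emcn was negative, was positive for it. The mean was 0.32 ± 0.47 (SD, n = 5), with 3 of 5 pairs positive.

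Gng11, a gamma subunit of heterotrimeric G proteins, was positive on all 9 arrays. Its log ratios were 0.63 and 0.91 for pair 193 and 0.90 for pair 194, and pair 197 gave 0.65 and 0.54, pair 199 gave 0.40 and 0.13, and pair 220 gave 0.30 and 0.20. As for Kdr, the values of pairs 199 and 220 were all below those of pairs 193 and 197, and the mean was 0.56 ± 0.29 (SD, n = 5).

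Rbp7 encodes a small retinol-binding protein known from the endothelium of fat. It had the highest mean of the 7 genes, 0.83 ± 0.62 (SD, n = 5), and pair 193 gave 1.21 and 1.42, pair 197 gave 1.32 and 1.25, pair 199 gave 1.05 and 0.93, and pair 220 gave 0.80 and 0.78. The array of pair 194 was the exception, at -0.21. Without pair 194 the mean was 1.10. In the 4 swapped pairs Rbp7 lay above at least 98.8% of the features, and in pair 194 above 25.2%.

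**Figure D1:**
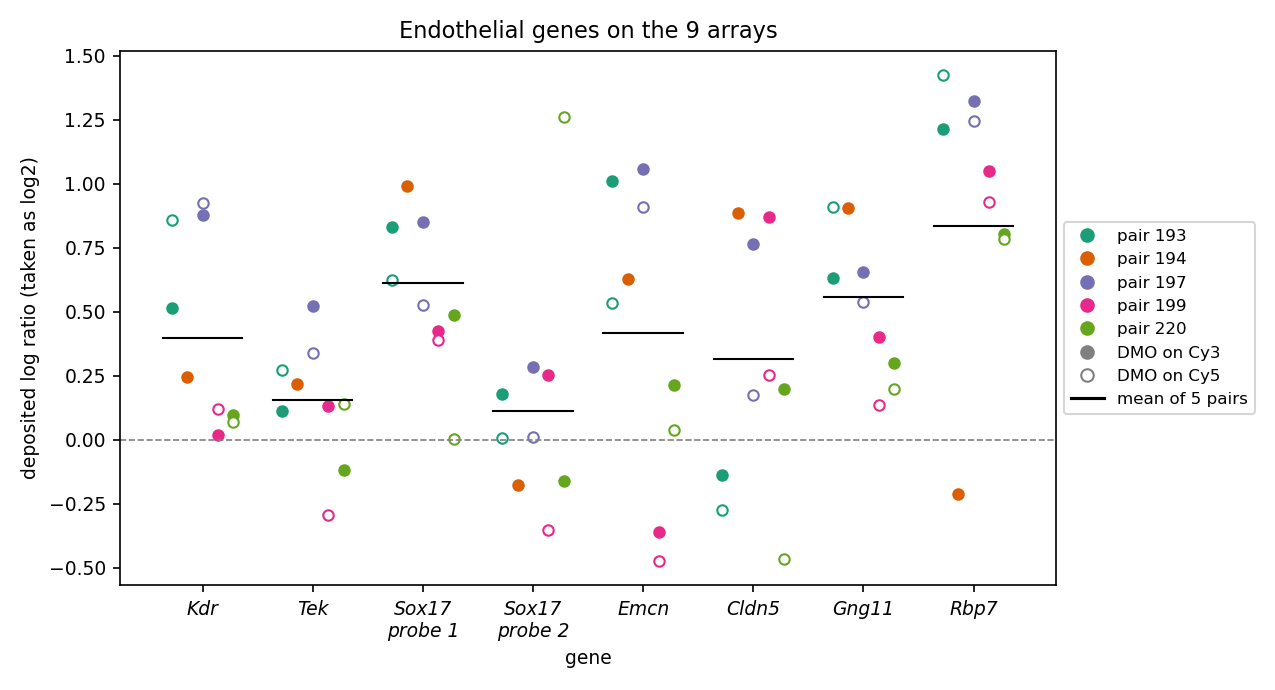
Deposited log ratios (vertical axis, taken as log2) of the 7 genes (horizontal axis, with the probes of Sox17 apart) on the 9 arrays. Filled circles have DMO RNA on Cy3 and open circles on Cy5, colours mark the animal pairs and black lines the mean of 5 pairs. Kdr, Gng11 and the first Sox17 probe are above 0 on every array, and Rbp7 is below 0 only in pair 194.

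The 7 genes did not move as a block. In pairs 193, 194, 197, 199 and 220, the positive genes numbered 6, 6, 7, 5 and 6 of 7, and the medians of the 7 were 0.69, 0.41, 0.60, 0.18 and 0.13. The medians of all features were between -0.041 and 0.076, and 53.1%, 44.9%, 60.3%, 43.1% and 53.8% of them were positive. Of the 7 genes, 3, Kdr, Sox17 and Gng11, were positive in all 5 pairs and also on all 9 arrays. For Sox17 this held for the probe average, and its second probe was positive in 3 of 5 pairs and on 6 of 9 arrays. Among all features 3.34% were positive in all 5 pairs and 0.329% on all 9 arrays. The genes were chosen on these ratios, so nothing is read from that contrast. By limma on the pair means, none of the 19478 features passed an adjusted p of 0.05 (0%), in either direction. At an unadjusted p under 0.05 there were 929 features (4.77%), and the smallest adjusted p was 0.926.

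Of these 7 genes, 5 had an entry in the RefSeq promoter table (build GRCr8), and Tek and Sox17 did not. The 250 bases before each gene's start were searched on both strands for AGGAAG, the core of ETS factor sites, and ACAAT, the core of SOX factor sites. Emcn and Rbp7 held both, and Kdr, Cldn5 and Gng11 held neither. Among 27457 promoters, 29.4% held AGGAAG, 29.6% held ACAAT and 8.26% held both, and nothing is drawn from 2 of 5. The stretches that hold both motifs are shown because ETS and SOXF factors are those described beside Sox17. Both are written 5′ to 3′ along the gene's strand with the motifs in capitals.
Emcn, chr2:228564367-228564434, plus strand: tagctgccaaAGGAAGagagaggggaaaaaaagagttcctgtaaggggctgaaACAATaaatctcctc
Rbp7, chr5:165177428-165177563, minus strand: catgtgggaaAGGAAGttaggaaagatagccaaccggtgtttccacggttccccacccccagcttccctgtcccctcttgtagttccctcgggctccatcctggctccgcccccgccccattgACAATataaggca
In Emcn the capitals begin 162 and 119 bases before the start, and in Rbp7 154 and 41 bases before it. A match is letters in a window and no measured binding site. In the pair where these promoters' genes differed most, pair 199, Emcn was -0.42 and Rbp7 was 0.99.

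The general endothelial list held 32 genes, of which 25 were measured, 5 of them among the 7. For the other 20 the means over pairs were positive for 15 and negative for 5, with a median of 0.061, against 9991 positive and 9487 negative means and a median of 0.0037 over all features. Limma called none of the 20, and none had an unadjusted p under 0.05. By pair, 16, 10, 16, 1 and 14 of the 20 were positive in pairs 193, 194, 197, 199 and 220, with medians of 0.30, -0.011, 0.19, -0.17 and 0.067. The positive shares over all features were 53.1%, 44.9%, 60.3%, 43.1% and 53.8% in the same order. Pair 199 stood apart, with a single positive gene, Erg at 0.20, where 43.1% of all features were positive. Its 2 arrays differed more than those of the other swapped pairs, by a median of 0.40 in size over all features. The median of the 20 was negative on both, at -0.27 and -0.22. Some of the averages joined opposite signs, such as Selp at -1.69 and 0.87 and Sox18 at 0.31 and -0.66. Others, such as Egfl7 at -0.52 and -1.16, did not. Kdr, Cldn5 and the probe average of Sox17 were positive in pair 199, at 0.069, 0.56 and 0.18, while Tek and Emcn were negative. Plvap, a protein of the diaphragms of endothelial pores and vesicles, had the highest mean of the 20, 0.40 ± 0.73 (SD, n = 5), and read 1.12, 1.06, -0.19, -0.52 and 0.51 in pairs 193, 194, 197, 199 and 220. The probes of Cdh5, Pecam1 and Vwf had means of both signs, so their averages are less certain.

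**Figure D2:**
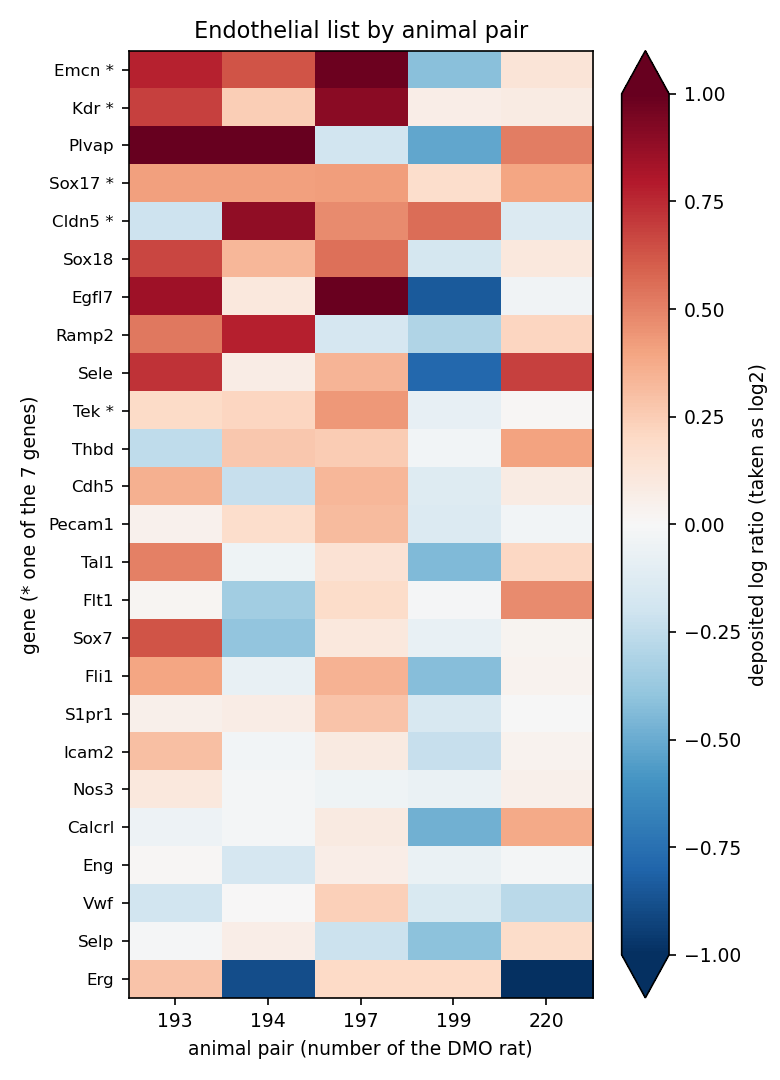
Deposited log ratios (colour, taken as log2) of the 25 measured endothelial genes (rows, ordered by their mean) in the 5 animal pairs (columns), with an asterisk for the 5 that are among the 7 genes. The column of pair 199 is below 0 for most genes, and Kdr, Cldn5, Erg and the probe average of Sox17 are above it there.

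Among the partners of Kdr, 14 other genes of VEGF signalling were measured, 12 with positive and 2 with negative means and a median of 0.10. None passed the adjusted or the unadjusted limma threshold. The ligands Vegfa and Vegfb averaged 0.17 ± 0.55 and 0.31 ± 0.46 (SD, n = 5 each). Vegfa was 0.84 and 0.67 in pairs 197 and 199 and at most -0.066 in pairs 193, 194 and 220, a pattern unlike that of Kdr. Vegfc averaged 0.13 ± 0.21, Vegfd 0.052 ± 0.16 and Pgf -0.0021 ± 0.17. Among the receptors, Flt1 (VEGF receptor 1, a decoy for VEGF-A) averaged 0.062 ± 0.30, Flt4 (VEGF receptor 3) 0.049 ± 0.13, and the co-receptors Nrp1 and Nrp2 0.16 ± 0.60 and 0.10 ± 0.090. Downstream, Plcg1, the phospholipase that binds the receptor, averaged -0.059 ± 0.50, the Notch ligand Dll4 0.014 ± 0.22 and Esm1 0.17 ± 0.37. The peptide Apln and its receptor Aplnr averaged 0.10 ± 0.15 and 0.17 ± 0.31. The probes of Dll4 and of Aplnr had means of both signs, from -0.060 to 0.088 for Dll4 and from -0.0097 to 0.48 for Aplnr.

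The angiopoietin and TIE list had 4 measured genes besides Tek, 2 with positive and 2 with negative means. Angpt2, a ligand of Tek, averaged 0.012 ± 0.10 (SD, n = 5) over probes with means from -0.093 to 0.11. Angpt4, another ligand, averaged 0.25 ± 0.25, but its probes disagreed. One probe averaged 0.59 ± 0.42 and was above 0 in all 5 pairs, and the other was negative in 4 of 5 pairs, with a mean of -0.098 ± 0.11 (SD, n = 5 each). The adaptor Dok2 averaged -0.073 ± 0.20, and Foxo1, a transcription factor held back by signalling from Tek, averaged -0.22 ± 0.35. None of the 4 passed either limma threshold.

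Of 11 measured SOXF and endothelial transcription factors besides Sox17, 9 had positive and 2 negative means, with a median of 0.073, and none passed either limma threshold. The other SOXF genes were negative in pair 199, where the Sox17 average was positive. That average joined 0.41 for the first Sox17 probe and -0.051 for the second. Sox18 read 0.67, 0.33, 0.55, -0.17 and 0.11 in pairs 193, 194, 197, 199 and 220, with a mean of 0.30 ± 0.34, and Sox7 read 0.63, -0.40, 0.11, -0.072 and 0.027, with a mean of 0.059 ± 0.37 (SD, n = 5 each). The ETS factors pointed different ways, with Ets2 at 0.42 ± 0.59, Ets1 at 0.086 ± 0.31, Fli1 at 0.054 ± 0.34, over probes at -0.044 and 0.15, and Erg at -0.28 ± 0.70. Erg was -0.89 in pair 194 and -1.18 in pair 220. Epas1, the hypoxia-inducible factor abundant in endothelium, was negative in all 5 pairs, between -0.24 and -0.061, with a mean of -0.13 ± 0.078. Klf4 averaged 0.18 ± 0.48, Gata2 0.17 ± 0.33, Tal1 0.073 ± 0.35 and Foxc2 0.065 ± 0.18.

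The other lists tied to single members gave no limma call either, in counts of 0 of 8 junction genes besides Cldn5, 0 of 11 arterial genes besides Sox17, 0 of 7 venous and lymphatic genes besides Emcn, 0 of 12 G protein subunits besides Gng11 and 0 of 5 retinoid-binding genes besides Rbp7. Of the 8 junction genes 7 had positive means, with a median of 0.079. On the average of its 2 arrays, all 8 were negative in pair 199, where Cldn5 was 0.56. Jam2 and Jam3, adhesion molecules of junctions, averaged 0.20 ± 0.25 and 0.17 ± 0.40 (SD, n = 5 each). Of the arterial genes 6 had positive and 5 negative means, and the connexin gene Gja5 averaged 0.22 ± 0.37 and the receptor gene Acvrl1 -0.20 ± 0.68. Among venous and lymphatic genes, Lyve1 averaged -0.14 ± 0.57 and the chemokine gene Ccl21 0.11 ± 0.27. The G protein subunits split 6 to 6, and the median of their means was -0.0011, against 0.56 for Gng11. Gng12 averaged 0.29 ± 0.96, of which pair 197 gave 1.96, and Gnb3 averaged -0.19 ± 0.21. Rbp4, the plasma carrier of retinol, averaged 1.15 ± 1.41 but was high only in pairs 197 and 199, at 2.40 and 2.93, while Rbp2 averaged -0.20 ± 0.30. Outside the 7 genes, only Rbp4 of these 5 lists had an unadjusted p under 0.05 by limma.

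Genes listed for microvascular and adipose endothelium had larger ratios than the endothelial and pathway lists above. Besides Rbp7, 10 were measured, of which 9 had positive means, with a median of 0.45. None was called by limma. At an unadjusted p under 0.05 there were 5 of 10, Fabp5, Cd36, Gpihbp1, Car4 and Aqp7, named after their values were seen, where all features gave 4.77%. Lpl, the lipase anchored on capillary endothelium by Gpihbp1, and the fatty acid carrier Fabp4 averaged 1.23 ± 1.76 and 1.0 ± 1.43 (SD, n = 5 each). Both were far above the other pairs in pairs 197 and 199, at 3.74 and 2.26 for Lpl and 2.86 and 2.23 for Fabp4. Cd36 was 1.89 and 1.24 there, while Rbp7 was no higher than in pair 193. The adipocyte list medians were also highest in these pairs, at 2.27 and 2.56. Whether RNA of endothelium or of adipocytes gave such ratios cannot be told apart and was not tested.

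Markers of other cells in the wall moved in some of the same pairs. Of 10 measured adipocyte genes, 9 had positive means, with a median of 0.92, and list medians were -0.15, 0.19, 2.27, 2.56 and 0.015 in pairs 193, 194, 197, 199 and 220. Of 9 contractile smooth muscle genes, 8 had negative means, with list medians of -0.75, 0.19, -1.38, 0.14 and -0.018. The smooth muscle medians were lowest in pairs 193 and 197, where Kdr and Emcn had their highest values. The adipocyte medians were -0.15 and 0.015 in pairs 193 and 220, where Rbp7 was 1.32 and 0.79. In pair 193, 2 of the 10 adipocyte genes were positive, against 53.1% of all features. Fibroblast medians ranged from -0.29 to 0.39, leukocyte medians from -0.21 to 0.094 and those of skeletal and cardiac muscle from -1.22 to 0.16. The 4 Schwann cell genes had a median of 2.46 in pair 194, the pair with the negative Rbp7 value, and between -0.089 and 0.22 elsewhere. The single measured erythroid gene was 0.55 in pair 197, and elsewhere it lay between -0.15 and 0.17. Their part in the values of the 7 genes was not tested.

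**Figure D3:**
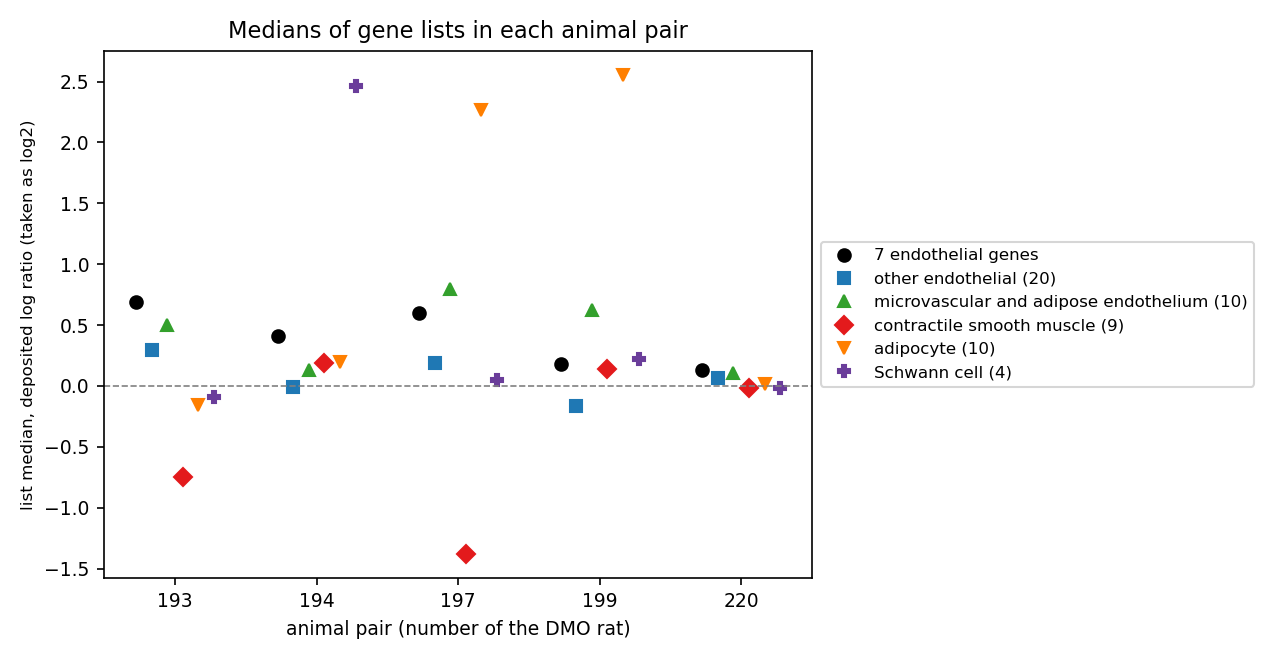
Median deposited log ratio (vertical axis, taken as log2) of the 7 genes and of 5 lists (symbols, with the number of measured genes) in each animal pair (horizontal axis). The median of the 7 genes is above 0 in every pair, the adipocyte median is above 2 only in pairs 197 and 199, and the smooth muscle median is below -0.5 only in pairs 193 and 197.

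How the 7 genes read on the dye orientations was another contrast of the same array values, which were known when the genes were chosen, so it too is a description without a test of the members. It took the log ratio with DMO on Cy3 minus that with DMO on Cy5 in the 4 swapped pairs, and a feature with no dye effect would be at 0 if the arrays had been turned. The 7 genes had the same sign on both arrays of a swapped pair 25 times of 28. Genes with sizeable ratios were chosen, so nothing is read from that count beside the shares over all features, which were 68.4% for pair 197 and 43.9%, 44.2% and 46.5% for pairs 193, 199 and 220. No feature passed an adjusted p of 0.05 by limma (0%), and 4082 of 19478 had an unadjusted p under 0.05 (21.0%).

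Cldn5 had the largest difference of the 7, at 0.14, 0.59, 0.62 and 0.66 in pairs 193, 197, 199 and 220. Its mean was 0.50 ± 0.13 (SE by limma, n = 4), and lay near the 95th percentile of all features, 0.53. The SE by limma draws on the spread of all features as well as on the 4 differences. Emcn was also more positive with DMO on Cy3 in all 4 pairs, by 0.48, 0.15, 0.11 and 0.18. Its mean was 0.23 ± 0.11 (SE by limma, n = 4). These were 2 of 7 genes with that sign in all 4 pairs, where 19.6% of all features had it. The means of the others were nearer to 0, at 0.0012 ± 0.11 for Rbp7, -0.12 ± 0.11 for Kdr and 0.047 ± 0.15 for Tek. Sox17 had 0.086 ± 0.17 and Gng11 0.052 ± 0.13 (SE by limma, n = 4 each).

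**Figure D4:**
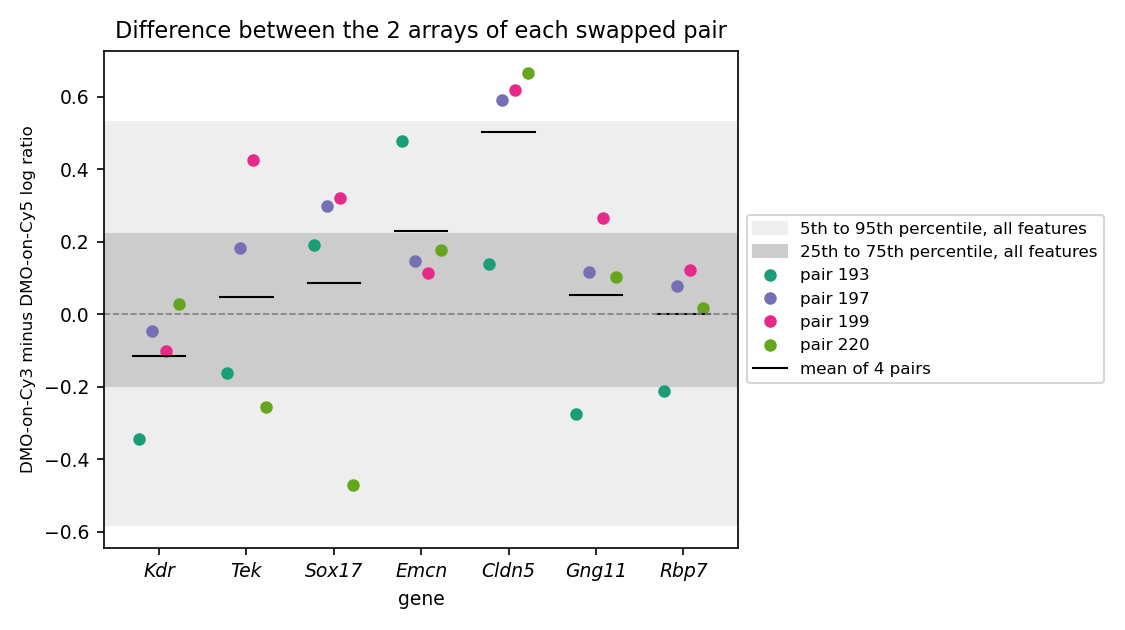
Difference between the arrays of each swapped pair, DMO on Cy3 minus DMO on Cy5 (vertical axis, log ratio taken as log2), for the 7 genes (horizontal axis). Points are the 4 pairs, black lines their means, and shaded bands the middle part and the 5th to 95th percentile of all features. Cldn5 and Emcn are above 0 in all 4 pairs, and Cldn5 averages 0.50.

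Large ratios were used to look at how the swapped arrays run. Features over 1 in size on both arrays numbered 63, 635 and 59 for pairs 193, 197 and 220, and 61, 633 and 52 of them had the same sign. For pair 199 it was 162 of 521, and the other 359 had opposite signs. A difference between the rats of a pair has opposite signs on arrays that were not turned, and a ratio set by the dye alone would recur in every swapped pair. Pck1, an adipocyte list gene, was 5.28 on both arrays of pair 197, while pair 199 gave 2.91 and 3.65 and pair 193 gave -0.42 and 0.20. Itga8, a smooth muscle list gene, was -1.62 and -1.54 for pair 193, while pair 197 gave -2.19 and -2.30 and pair 220 gave 0.020 and 0.26. The large ratios of these genes had the signs that turned arrays give, for Pck1 in pairs 197 and 199 and for Itga8 in pairs 193 and 197. Each had the largest mean in size of its list, and opposite signs on the arrays of a pair would have cancelled in that mean. Nothing is therefore read from the signs of these genes. Most large features of pair 199 had opposite signs, so how its arrays run was not settled. When the Cy5 arrays were multiplied by -1 all the same, the means over 5 pairs were 0.0025 for Kdr, 0.062 for Tek, 0.22 for Emcn, 0.38 for Cldn5, 0.12 for Sox17, 0.20 for Gng11 and -0.042 for Rbp7. Equal signs on the arrays of a pair cancel in this calculation, and the means were nearer to 0 than as deposited for all of the 7 genes except Cldn5. Cldn5 and Emcn were then positive in all 5 pairs, and Kdr in 2 of 5. No feature was called by limma in this calculation either, with 3131 at an unadjusted p under 0.05. 

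The genes with values most like Kdr over the 9 arrays, by the root mean square difference among 9652 genes, were Efna1 at 0.17, an ephrin ligand, Pim3 at 0.25, a kinase, and Kitlg at 0.26, the ligand of the receptor Kit, against a median of 0.60 over genes. Of the other 6 genes, Gng11 ranked 17, Emcn 29, Tek 55 and Sox17 77 for Kdr, while Cldn5 and Rbp7 ranked 6052 and 6630, beyond that median. For Gng11 the nearest were Itm2b at 0.22, the ribosomal protein gene Rps13 at 0.23 and Mpzl1 at 0.26, with Kdr at rank 12, Sox17 20, Tek 125, Emcn 128, Cldn5 1799 and Rbp7 6680. For Sox17 they were Ralgdsl1 at 0.20, the ribosomal protein gene Rpl30 at 0.21 and Slc52a3, a riboflavin transporter, at 0.22, with Tek at rank 43, Gng11 294, Kdr 1370, Emcn 4830, Cldn5 6269 and Rbp7 8833. For Rbp7 they were Ppa1 at 0.52, a pyrophosphatase, Car4 at 0.52, a carbonic anhydrase on capillary endothelium, and Gpihbp1 at 0.55, against a median of 1.07 over genes, with Kdr at rank 19, Gng11 32, Sox17 70, Emcn 218, Tek 678 and Cldn5 3826. Arrays of a pair share the same RNA, so these distances rest on 5 pairs of animals. Kdr and the other 6 genes were chosen with their array values known, so nothing is read from their ranks for each other.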

How the data were processed

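Thoracic aorta RNA was labelled in Cy3 and Cy5 and hybridised to Agilent arrays, per the labels. The values used are the log ratios deposited by the authors, taken as log2. How they were corrected for background and normalized is not given in the sources used here, and every array had a mean of 0. The 22575 features were numbered by array position, in 105 columns and 215 rows. The platform annotation gave 1 symbol to 12750 features, several to 5 and none to 9820. Symbols were updated through gene IDs for 12720 features. Probes of 1 gene were averaged, which left 19478 features, with no filter on low values.

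The 2 arrays of a pair hold the same RNA extracts, per the labels, and were averaged to 1 replicate. Precision is limited by the small number of arrays. The labels give all arrays the same date and each its own slide barcode, and name no batch. The barcode numbers fall in a lower and a higher range. Both arrays of pair 193, that of pair 194 and the Cy5 array of pair 197 are in the lower range. The Cy3 array of pair 197 and the arrays of pairs 199 and 220 are in the higher range. No batch term was fitted, and a part of these ranges in the values was not tested. Over all features the correlation within pairs was 0.080. Pair means were tested against 0, and differences between dye orientations likewise, with limma 3.58.1 in R 4.3.3 and Benjamini-Hochberg adjustment over all features. The fit was also run on simulated data, with shifts larger than the mean of any of the 7 genes. That run does not show how often effects of their size would be called. Named were all 7 genes, every measured gene of the VEGF, angiopoietin and SOXF lists, the 3 genes of largest mean size in each other endothelial or pathway list, and the 3 genes most like Kdr, Sox17, Gng11 and Rbp7. Other genes were named after their values were seen, such as Selp, Egfl7, Cd36 and Aqp7, or because their probes differed, such as Vwf. The 7 genes and all lists were chosen with earlier results of these data known. Alternatives covered turning, centring, scaling, separate probes, the pair as a block, DMO on Cy3 only and leaving out pairs. The design names 10 samples, and the tenth was not analysed here.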

Additional observations from a re-analysis of the deposited data

Results flagged for a closer look

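Over the 5 animal pairs, 68 genes were checked for a pair far from the others, by the gap to the nearest pair as a share of the whole range. Of these, 9 genes had such a pair. The cutoff would pass about 1 in 20 for independent normal values. Many of the genes were checked because their means were large, and the share over all features was not computed, so nothing is read from the count. Among the 7 genes it was the probe average of Sox17, with 0.18 in pair 199 where the other pairs lay between 0.40 and 0.42. Its separate probes gave 0.41 and -0.051 in pair 199, which was neither the lowest nor the highest pair for either probe. Among list genes, Apln was -0.16 in pair 194, Gng12 was 1.96 in pair 197 and Rbp2 was -0.71 in pair 199. Among markers of other cells, Lyz2 was 1.18 in pair 193, and Ckm was -2.21 in pair 197. In pair 194 the Schwann cell markers Scn7a, Pmp22 and Sox10 were 5.29, 3.77 and 1.15. Pair 194 is the pair measured on 1 array.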

How the results depend on the processing

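In the group and the dye comparison limma called 0 features under every alternative run. The group comparison had 929 features at an unadjusted p under 0.05, against 3131 with the Cy5 arrays turned, 2174 with DMO on Cy3 only, and 612 (without pair 199) to 1249 (without pair 194) leaving out each pair. With the animal pair as a random block over all 9 arrays it called 0, with 1393 at an unadjusted p under 0.05. The dye comparison had 4082, against 2971 without the block and 2487 (without pair 197) to 5196 (without pair 199) leaving out a pair, 2690 without pair 193 and 2568 without pair 220, with 0 called in each. Of 78 alternatives for the means of the 7 genes, 72 stayed within 1 SD of the value given. Many of these could not leave that range. Omitting a pair cannot shift a mean by 1 SD over the pairs, and separating probes changes nothing for genes with 1 probe. Nothing is therefore read from the count of 72. With the Cy5 arrays turned, Rbp7 turned negative, at -0.042, and Kdr, Sox17 and Gng11 dropped to 0.0025, 0.12 and 0.20. The separate Sox17 probes gave 0.61 and 0.11. Leaving out a pair gave means of 0.27 to 0.48 for Kdr, 0.085 to 0.21 for Tek, 0.28 to 0.63 for Emcn, 0.17 to 0.45 for Cldn5, 0.35 to 0.41 for Sox17, 0.47 to 0.63 for Gng11 and 0.71 to 1.10 for Rbp7. The lowest means of Tek and Emcn came without pair 197 and that of Cldn5 without pair 194. The cause was not tested. The direction, the log base and the feature numbering limit every sign and name.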
